A study of Mus musculus with 24 samples.

Results

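Primary myoblasts from dystrophin-deficient mdx mice were compared before and after 2 days of differentiation into myotubes, using 3 libraries of mdx myotubes and 3 libraries of mdx myoblasts out of the 24 bulk RNA-seq libraries of the series. The 6 libraries were chosen by their labels alone (cell type and genotype). The mice carried the mdx allele of the dystrophin gene (Dmd) on a C57BL/10 background together with the Pax7-nGFP transgene, in which Pax7 regulatory sequence drives a nuclear green fluorescent protein, and the WT mice used for comparison carried Pax7-nGFP as well. Cells came from hindlimb muscle by magnetic sorting of lineage-negative, α7-integrin-positive cells. The mdx myotubes were held for 2 days in low-serum medium with 5% horse serum, whereas the mdx myoblasts were grown on collagen in medium with 20% fetal bovine serum and 5 ng/mL basic FGF. The groups thus differed in medium as well as in state, and both effects cannot be told apart. The paper describes the bulk libraries as biological triplicates. The labels number 3 replicates in each group without saying whether they came from separate animals, so the p-values measure the spread between these cultures.

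Myoblasts are the proliferating progeny of muscle stem cells (MuSCs). When growth factors are withdrawn they leave the cell cycle, switch on myogenin and the MEF2 factors after MyoD, fuse through the membrane proteins myomaker and myomixer, and assemble sarcomeres, the repeating contractile units of muscle. Dystrophin normally links this contractile apparatus to the membrane. The mdx allele carries a premature stop codon in Dmd.

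Each mdx library held between 39600017 and 64429222 gene-assigned counts, so that 3 counts corresponded to 0.0464 to 0.0825 CPM, counts scaled to a common library size. Over the 500 most variable genes the first principal component held 81.1% of the variance and separated mdx myotubes (61.6 to 64.8) from mdx myoblasts (-70.4, -45.7 and -71.9 for replicates 1 to 3). Replicate 2 of the mdx myoblasts stood apart from its group. Its summed level of 20 macrophage markers was 269 CPM, with all 20 markers at 1 CPM or more, against 12.4, 16.2 and 30.7 CPM in the mdx myotubes and 14.9 and 18.7 CPM in mdx myoblast replicates 1 and 3. Lyz2 (lysozyme) reached 90.1 CPM in that library. Calcr, the calcitonin receptor of quiescent MuSCs, was at 0.0825, 0 and 0.139 CPM in mdx myotubes and at 0.0928, 18.5 and 0.988 CPM in mdx myoblasts. Erythroid markers summed to 32.8 CPM in mdx myoblast replicate 2, and to at most 2.27 CPM in the other 5 libraries. Of 264 named genes tested, 244 were called between mdx myotubes and mdx myoblasts, and leaving this library out moved the fold change of 36 of those by more than 1.5 times, 34 of them to a larger size. Without it 5 named genes gained a call (Dmd, Heyl, Postn, Spry1 and Tgfb2), and Myf5 was among those that lost it.

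**Figure D1:**
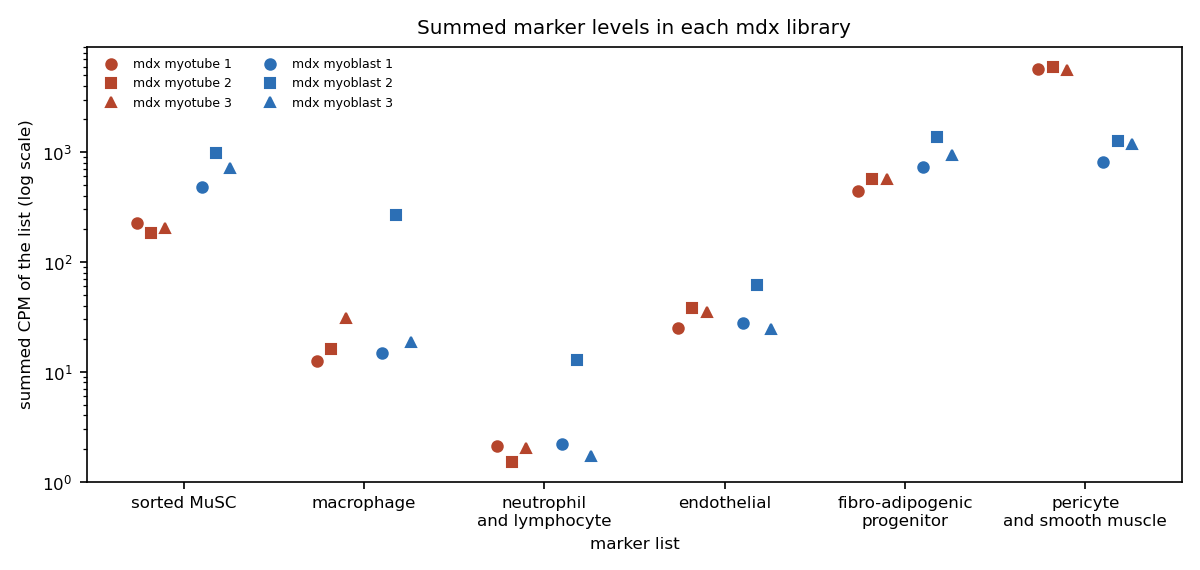
Summed CPM (log axis) of 6 marker lists in each mdx library, with mdx myotubes left of mdx myoblasts and one symbol shape per replicate number. Macrophage markers summed to 269 CPM in mdx myoblast replicate 2 and to 30.7 CPM or less in the other 5 libraries.

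Differentiation changed a large part of the transcriptome. Of 17206 genes tested with edgeR's quasi-likelihood test, 4431 (25.8%) were higher in mdx myotubes and 4551 (26.5%) were lower at a Benjamini-Hochberg adjusted p under 0.05, together 52.2% of genes. The 3 libraries of each group did not overlap for 63.5% of genes. Among the called genes, 1386 rose by more than 2 and 1485 fell by more than 2 on the log2 scale. When mdx myoblast replicate 2 was left out, 23.5% of genes were higher and 23.2% lower (46.7% in all), 7789 of the 8982 called genes were called again and 0 changed sign. Because the RNA is bulk, more or fewer cells of one kind and more or less RNA per cell cannot be told apart. Each list of genes below is read against these shares.

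The myogenic transcription factors moved in both directions. Of 48 tested members, 18 were higher (37.5%) and 16 lower (33.3%) in mdx myotubes, against 25.8% and 26.5% of all genes tested. Myogenin (Myog, chr1:134289989-134292548), which commits myoblasts to differentiation, stood at 2192, 1335 and 1097 CPM in mdx myotubes, against 28.6, 56.5 and 36.9 CPM in mdx myoblasts. Even the lowest mdx myotube library was far above the highest mdx myoblast library. The log2 fold change was 5.24 ± 0.411 (SE) with an edgeR adjusted p of 0.000189. Mef2c, a partner of the MyoD family, was at 1229, 1552 and 1378 CPM in mdx myotubes and 6.78, 26.8 and 9.35 CPM in mdx myoblasts (log2 fold change 6.60, edgeR adjusted p = 0.000376). Mef2d rose less, by 2.26 on the log2 scale (edgeR adjusted p = 4.25e-05), and Myf6 (MRF4), the late member of the MyoD family, rose by 5.28 (edgeR adjusted p = 0.00331).

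The factors of the undifferentiated state were lower. Pax7, which marks MuSCs and their early progeny, was at 23.4, 19.7 and 31.5 CPM in mdx myotubes and 140.3, 210.2 and 144 CPM in mdx myoblasts, with no overlap (log2 fold change -2.73, edgeR adjusted p = 0.000264). Myod1 was lower by a smaller amount, at 678, 585 and 437 CPM in mdx myotubes and 886, 1089 and 1157 CPM in mdx myoblasts (log2 fold change -0.88, edgeR adjusted p = 0.00806), so that it was still abundant after 2 days. Id1 and Id3, which sequester the E-protein partners of MyoD, had log2 fold changes of -3.48 and -4.71 (edgeR adjusted p = 0.000688 and 0.00034). Tcf3, the E-protein itself, also fell (log2 fold change -1.86, edgeR adjusted p = 6.04e-05). Myf5 was at 13.0, 15.3 and 31.8 CPM in mdx myotubes and 29.2, 74.6 and 54.4 CPM in mdx myoblasts, and the ranges overlapped. Its log2 fold change of -1.40 had an edgeR adjusted p of 0.0446, which became 0.109 without mdx myoblast replicate 2, 0.1 without mdx myoblast replicate 3, 0.134 without mdx myotube replicate 1 and 0.149 without mdx myotube replicate 2.

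**Figure D2:**
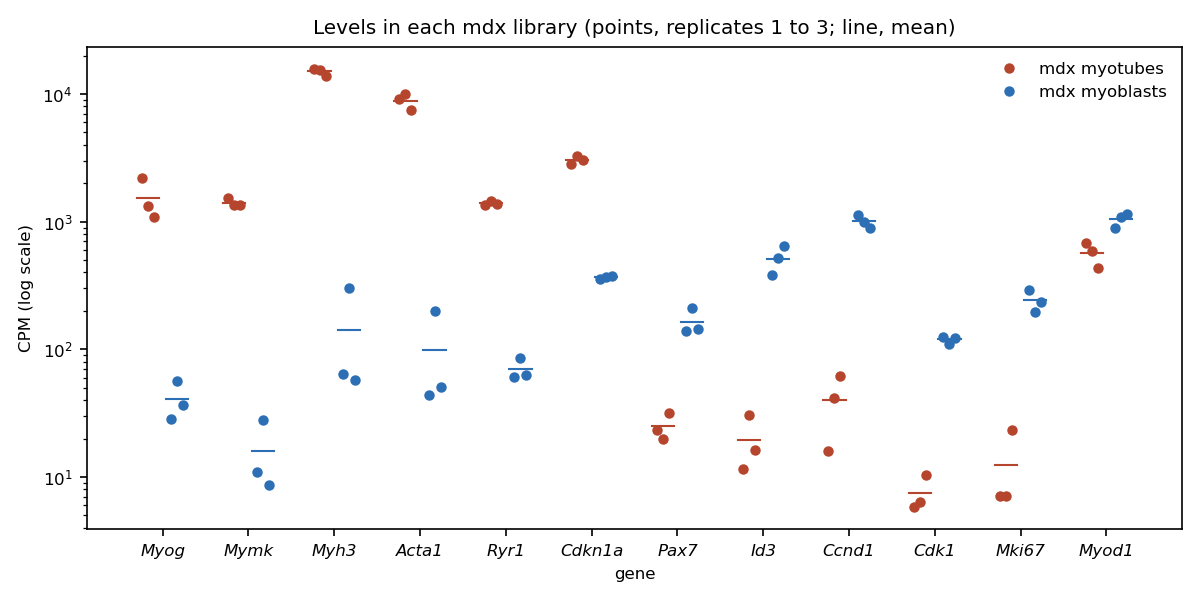
CPM (log axis) of 12 genes in each mdx library, with mdx myotubes left of mdx myoblasts, points for replicates 1 to 3 and a line at the mean. Myog, Mymk, Myh3, Acta1, Ryr1 and Cdkn1a were higher in every mdx myotube library, and Pax7, Id3, Ccnd1, Cdk1, Mki67 and Myod1 were lower in every one.

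The genes of both fusion proteins rose. Mymk (myomaker, chr2:27061636-27072179) was at 1526, 1359 and 1343 CPM in mdx myotubes, against 11, 27.9 and 8.73 CPM in mdx myoblasts, a log2 fold change of 6.47 ± 0.542 (SE, edgeR adjusted p = 0.000242). Mymx (myomixer) was at 187, 171 and 113 CPM in mdx myotubes and at 1.95, 4.9 and 1.54 CPM in mdx myoblasts (log2 fold change 5.80, edgeR adjusted p = 0.000326). Neither gene overlapped between the groups. Over the whole list of fusion and cell contact genes, 16 of 41 tested members were higher (39.0%) and 13 lower (31.7%). The shares over all genes tested were 25.8% and 26.5%. Bin1, which shapes the T-tubule membrane, rose by 2.71 on the log2 scale, and Cdh15 (M-cadherin) rose by 1.37. Kirrel, an immunoglobulin-family adhesion protein, and Vcam1, a surface marker of MuSCs, were lower, with log2 fold changes of -2.53 and -3.17. Dock1, an activator of the GTPase Rac that fusion needs, had a log2 fold change of -1.77 and stood at 14.7, 17.1 and 13.9 CPM in mdx myotubes and 49.2, 50.1 and 56.5 CPM in mdx myoblasts.

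Sarcomere genes were raised strongly. Of the thick filament and M-band genes, 30 of 32 tested were higher and 0 lower, with a median log2 fold change of 6.10 (7.19 without mdx myoblast replicate 2) against -0.07 for all genes tested. Together the 35 genes of that list summed to 49272, 58866 and 54771 CPM in mdx myotubes and to 483, 1439 and 527 CPM in mdx myoblasts. Mylk2 (log2 fold change 0.27) and Smyd2 (0.07) were the members tested but not called. The thin filament list had 26 of 31 members higher and 3 lower with a median of 5.64, and the Z-disc and intermediate filament list had 32 of 37 higher and 2 lower with a median of 4.09.

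Among the myosin heavy chains the embryonic gene Myh3 was the most abundant in mdx myotubes. Myh3 (chr11:67078300-67102291) was at 15739, 15502 and 13867 CPM in mdx myotubes and 64.5, 305 and 57.7 CPM in mdx myoblasts (log2 fold change 6.72, edgeR adjusted p = 0.000987, and 7.94 without mdx myoblast replicate 2). Per transcript length, the mean level in mdx myotubes was 1364 TPM (a transcript level corrected for length and depth) for Myh3, 546 TPM for the adult fast gene Myh1, 247 TPM for perinatal Myh8, 35.4 TPM for slow Myh7, 19.9 TPM for Myh4 and 3.64 TPM for Myh2. The adult fast genes varied between the mdx myotube libraries. Myh2 was at 97.6, 5.58 and 6.26 CPM in mdx myotubes, so replicate 1 held far more than the other mdx myotube libraries, and at 0.124, 0.0642 and 0 CPM in mdx myoblasts (log2 fold change 9.0 ± 1.78 (SE), edgeR adjusted p = 0.0063, and 6.45 without mdx myotube replicate 1). Myh4 was lowest in that same replicate, at 85.1, 254 and 329 CPM in mdx myotubes against 1.05, 9.07 and 0.023 CPM in mdx myoblasts. These myosin genes are close copies of each other, and estimated counts can be divided wrongly between them.

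Skeletal α-actin (Acta1) was at 9174, 10016 and 7475 CPM in mdx myotubes and 43.8, 199.8 and 50.6 CPM in mdx myoblasts (log2 fold change 6.50, edgeR adjusted p = 0.00075). Cardiac α-actin (Actc1), which fetal muscle also uses, rose by 6.41, the cardiac troponin T gene Tnnt2 by 5.18 and the fast troponin T gene Tnnt3 by 6.24 on the log2 scale. The nonmuscle tropomyosin gene Tpm4 moved the other way, to 87.2, 77.0 and 109 CPM in mdx myotubes against 862, 792 and 919 CPM in mdx myoblasts (log2 fold change -3.24, edgeR adjusted p = 5.01e-05). At the Z-disc, Actn2 (α-actinin) rose by 7.06, Tcap by 6.87 and Myoz2 by 7.24. In the intermediate filament group desmin (Des) was at 3225, 4725 and 4434 CPM in mdx myotubes and 284, 519 and 624 CPM in mdx myoblasts (log2 fold change 3.12), whereas vimentin (Vim) was at 1117, 1357 and 1009 CPM in mdx myotubes and 3292, 3284 and 3283 CPM in mdx myoblasts (log2 fold change -1.50). Both changes were larger than the spread between replicates (edgeR adjusted p = 0.000485 and 0.000274).

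The promoters of the sarcomere genes were searched for binding motifs of the factors that had moved. RefSeq promoters (GRCm38.p6, 250 bases before to 50 after the start) were found for 84 of 104 genes of the 3 sarcomere lists, 103 promoters in all. The E-box CAGCTG, a palindrome bound by MyoD and myogenin, was in 32.0% of them and in 16.3% of all 32851 promoters. The 10-base MEF2 site was in 8.74% of them and in 0.557% of all promoters, searched on both strands. Among genes higher in mdx myotubes the E-box was in 19% and the MEF2 site in 0.999% of promoters, against 14.3% and 0.348% among genes lower in mdx myotubes. A match describes the letters only. The promoters of Klhl41, Myoz2 and Capn3 are shown because each held both motifs, a choice made after their values were seen. In each line the capitals mark the E-box and the MEF2 site, and the sequence reads 5′ to 3′ on the gene's strand.
Klhl41: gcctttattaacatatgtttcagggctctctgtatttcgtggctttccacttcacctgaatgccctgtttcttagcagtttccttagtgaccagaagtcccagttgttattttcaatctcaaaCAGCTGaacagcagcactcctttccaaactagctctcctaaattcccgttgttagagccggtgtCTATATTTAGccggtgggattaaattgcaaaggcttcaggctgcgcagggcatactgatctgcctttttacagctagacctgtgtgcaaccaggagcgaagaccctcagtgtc
Myoz2: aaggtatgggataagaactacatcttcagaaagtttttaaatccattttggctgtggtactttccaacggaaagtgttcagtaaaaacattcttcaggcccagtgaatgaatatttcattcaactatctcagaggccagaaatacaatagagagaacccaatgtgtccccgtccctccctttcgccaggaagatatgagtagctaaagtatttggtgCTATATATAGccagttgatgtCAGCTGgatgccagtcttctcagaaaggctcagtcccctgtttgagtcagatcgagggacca
Capn3: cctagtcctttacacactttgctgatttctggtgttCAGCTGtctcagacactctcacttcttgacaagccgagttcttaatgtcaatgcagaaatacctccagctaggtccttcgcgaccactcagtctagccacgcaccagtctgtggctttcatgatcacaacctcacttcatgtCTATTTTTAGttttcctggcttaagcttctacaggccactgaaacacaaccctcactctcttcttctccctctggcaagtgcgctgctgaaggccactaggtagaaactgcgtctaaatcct
The Klhl41 promoter (chr2:69669870-69670169, plus strand) held the E-box 127 bases and the MEF2 site 63 bases before the start, that of Myoz2 (chr3:123034938-123035237, minus strand) held them 12 and 33 bases before it, and the first of both Capn3 promoters (chr2:120463343-120463642, plus strand) 214 and 72 bases before it. Klhl41, a sarcomere assembly factor, was at 753, 929 and 1068 CPM in mdx myotubes and 5.99, 21.6 and 8.2 CPM in mdx myoblasts (log2 fold change 6.26, edgeR adjusted p = 0.000349). Capn3, a muscle calpain, was at 62.6, 298 and 215 CPM in mdx myotubes and 0.464, 4.29 and 0.207 CPM in mdx myoblasts (log2 fold change 6.83, edgeR adjusted p = 0.00541). Myoz2, which tethers calcineurin to the Z-disc, was at 85.6, 70.4 and 135 CPM in mdx myotubes and 0.65, 0.803 and 0.436 CPM in mdx myoblasts (edgeR adjusted p = 6.39e-05). The groups did not overlap for any of these 3 genes. No exact match to either motif was found in the RefSeq promoters of Myog and Myh3. The Myog promoter held CTATATTTAT, which differs from the MEF2 pattern in its last base only, and such near matches were not counted.

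The machinery that couples membrane excitation to calcium release was raised together with the sarcomere. Of 43 tested members 37 were higher and 3 lower, with a median log2 fold change of 3.71 (4.67 without mdx myoblast replicate 2). The calcium release channel Ryr1 was at 1349, 1443 and 1388 CPM in mdx myotubes and 60.8, 85.6 and 63.5 CPM in mdx myoblasts (log2 fold change 4.32, edgeR adjusted p = 4.25e-05). Its voltage sensor Cacna1s rose by 7.05, the calcium pump Atp2a1 by 6.67, the calcium store protein Casq2 by 6.60 and the adaptor Stac3 by 2.86 on the log2 scale. The lower members were Itpr1 and Itpr3, which encode inositol trisphosphate receptors, with log2 fold changes of -2.20 and -1.39, and Asph with -0.64 (edgeR adjusted p = 0.0326, and 0.0645 without mdx myoblast replicate 2). In the list of the acetylcholine receptor and the synapse, 15 of 21 members were higher and 4 lower. The fetal receptor subunit gene Chrng was at 497, 900.4 and 656 CPM in mdx myotubes and 55.4, 123 and 77.0 CPM in mdx myoblasts (log2 fold change 3.01), and its adult counterpart Chrne was at only 0.577, 1.64 and 5.55 CPM in mdx myotubes and 0, 0.0482 and 0.0919 CPM in mdx myoblasts. The receptor kinase Musk rose by 2.24 and Erbb3, a neuregulin receptor, by 5.82. The nerve-derived organiser agrin (Agrn) was lower, at 33.4, 36.5 and 32.9 CPM in mdx myotubes and 145, 109.8 and 134 CPM in mdx myoblasts.

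Dmd itself was low in these cells. On a scale set over the 12 cultured libraries, Dmd was at 36.4, 41.5 and 33.3 CPM in mdx myotubes against 181, 187 and 207 CPM in WT myotubes, and at 2.08, 25.1 and 4.52 CPM in mdx myoblasts against 4.86, 12.5 and 4.27 CPM in WT myoblasts. The mdx myotubes therefore lay below all WT myotubes, whereas the myoblasts of both genotypes overlapped. Whether the change from myoblast to myotube differed between genotypes was tested over the 12 libraries. In that test 0 members of the dystrophin-glycoprotein complex list, Dmd among them, were called by edgeR or DESeq2. Between mdx myotubes and mdx myoblasts the log2 fold change of Dmd was 1.81 ± 0.871 (SE, edgeR adjusted p = 0.129). Without mdx myoblast replicate 2, which held the highest level among mdx myoblasts, the log2 fold change was 3.49 and the adjusted p 0.00117. Dmd-203, a transcript of 14910 bases, was at 1.22, 1.03 and 0.952 TPM in mdx myotubes and 0.00781, 0.537 and 0.0295 TPM in mdx myoblasts. Its share of the gene's TPM was 34.4, 25.8 and 28.1% in mdx myotubes and 2.05, 9.5 and 2.18% in mdx myoblasts.

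The partners of dystrophin were mostly raised. Of 29 tested members of the dystrophin-glycoprotein complex list, 17 were higher and 5 lower (median log2 fold change 0.88). Dag1, which encodes dystroglycan, was at 1396, 1326 and 1275 CPM in mdx myotubes and 132, 318 and 139.7 CPM in mdx myoblasts (log2 fold change 2.76, edgeR adjusted p = 0.00132). Utrn (utrophin), the autosomal relative of dystrophin, was at 371, 284 and 235 CPM in mdx myotubes and 122, 133 and 115 CPM in mdx myoblasts (log2 fold change 1.26, edgeR adjusted p = 0.00129). Sntb1, a syntrophin, rose by 5.01 on the log2 scale, whereas Sntb2 had a log2 fold change of -1.10. The sarcoglycans Sgca and Sgcb rose by 1.61 and 1.58.

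Genes of energy metabolism were raised in large numbers. Of 46 tested genes of creatine, glycogen and glycolysis, 29 were higher and 8 lower (median log2 fold change 1.48). Muscle creatine kinase (Ckm) was at 486, 869.5 and 1054 CPM in mdx myotubes and 3.17, 16.7 and 0.827 CPM in mdx myoblasts (log2 fold change 6.85, edgeR adjusted p = 0.00395, and 8.61 without mdx myoblast replicate 2). The brain-type creatine kinase Ckb rose as well, to 546, 323 and 506 CPM in mdx myotubes against 47.6, 34.4 and 23.8 CPM in mdx myoblasts (log2 fold change 3.70, edgeR adjusted p = 0.000293). The insulin-responsive glucose transporter Slc2a4 was at 89.8, 114 and 159 CPM in mdx myotubes and 1.21, 1.65 and 1.1 CPM in mdx myoblasts (log2 fold change 6.51, edgeR adjusted p = 5.01e-05). Glycogen phosphorylase (Pygm) rose by 4.56, the muscle phosphofructokinase Pfkm by 4.39 and the muscle phosphoglycerate mutase Pgam2 by 5.90. Nuclear genes for oxidative phosphorylation subunits moved as a body, with 55 of 57 members higher, 0 lower and a median of 1.40. The exceptions to this modest size were the subunits of heart and muscle, Cox6a2, Cox8b and Cox7a1, which rose by 7.06, 6.78 and 5.10. Cox6a1, the ubiquitous counterpart of Cox6a2, was at 88.6, 118 and 90.4 CPM in mdx myotubes and 91.0, 103 and 111 CPM in mdx myoblasts (log2 fold change -0.04, edgeR adjusted p = 0.849). All 13 protein-coding genes of the mitochondrial genome were higher, with a median of 1.09. For fatty acid oxidation and its regulators, 27 of 39 members were higher and 4 lower. Within the carnitine palmitoyltransferases, the muscle gene Cpt1b rose by 4.35 and the liver gene Cpt1a was at 37.7, 35.9 and 36.0 CPM in mdx myotubes and 277, 247 and 296 CPM in mdx myoblasts (log2 fold change -2.90, edgeR adjusted p = 4.08e-05).

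Cell cycle genes fell as a whole. In the mitosis list 69 of 69 tested members were lower in mdx myotubes, with a median log2 fold change of -4.26 and no overlap between the groups for any of them, and in the DNA replication list 57 of 58 were lower with a median of -3.04. The exception was Rrm1, with a log2 fold change of -0.81 and an edgeR adjusted p of 0.0661. Mki67 (Ki-67, chr7:135689784-135716361), the usual marker of cycling cells, was at 7.07, 7.07 and 23.2 CPM in mdx myotubes and 294, 197 and 233 CPM in mdx myoblasts (log2 fold change -4.27, edgeR adjusted p = 0.00122). Cdk1, the kinase that drives mitosis, was at 5.8, 6.35 and 10.4 CPM in mdx myotubes and 126, 110.5 and 123 CPM in mdx myoblasts (log2 fold change -3.99, edgeR adjusted p = 9.23e-05). In both genes replicate 3 was the highest of the mdx myotubes. The mitosis list summed to 652 CPM in that library, against 370.1 and 369.8 CPM in mdx myotube replicates 1 and 2, and to 6308, 4843 and 5714 CPM in mdx myoblasts. Among replication genes, Mcm4, a subunit of the replicative helicase, fell by 3.41, Cdc6, a helicase loader, by 4.40 and Pcna, the sliding clamp, by 1.96 on the log2 scale.

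The promoters of the mitosis genes were searched in the same way. RefSeq promoters were found for 58 of 69 genes, 64 promoters in all. The motif TTTGAA, the core of the cell cycle homology region bound by the MuvB complex, was in 68.8% of them and in 17.9% of all promoters, and the CCAAT box bound by NF-Y was in 75.0% and in 37.4% of all promoters, both strands counted. Promoters of DNA replication genes held TTTGAA in 13.2% and CCAAT in 60.4% of 53. Over genes lower in mdx myotubes TTTGAA was in 14.1% of promoters, and over genes higher in mdx myotubes in 10.6%. The promoters of Cdk1, Ccnb2 and Mki67 are shown because each held 2 copies of TTTGAA beside several CCAAT boxes, in capitals on either strand (ATTGG is CCAAT read from the other strand).
Cdk1: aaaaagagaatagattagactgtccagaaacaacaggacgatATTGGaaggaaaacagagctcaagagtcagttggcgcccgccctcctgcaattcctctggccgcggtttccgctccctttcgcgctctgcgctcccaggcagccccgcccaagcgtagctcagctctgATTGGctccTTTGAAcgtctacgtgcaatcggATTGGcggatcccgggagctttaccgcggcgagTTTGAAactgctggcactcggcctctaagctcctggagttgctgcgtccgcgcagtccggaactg
Ccnb2: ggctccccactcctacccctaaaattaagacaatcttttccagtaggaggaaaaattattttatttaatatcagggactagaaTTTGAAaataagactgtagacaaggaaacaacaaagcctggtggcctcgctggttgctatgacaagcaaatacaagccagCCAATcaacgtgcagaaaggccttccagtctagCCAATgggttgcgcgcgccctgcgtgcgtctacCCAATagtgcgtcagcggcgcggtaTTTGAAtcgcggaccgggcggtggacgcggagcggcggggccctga
Mki67: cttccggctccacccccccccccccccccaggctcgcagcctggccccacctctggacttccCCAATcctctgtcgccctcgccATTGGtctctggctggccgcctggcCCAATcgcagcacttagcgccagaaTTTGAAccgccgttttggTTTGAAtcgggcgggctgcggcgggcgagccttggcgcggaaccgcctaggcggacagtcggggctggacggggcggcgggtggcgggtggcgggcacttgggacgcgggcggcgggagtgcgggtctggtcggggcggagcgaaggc
The Cdk1 promoter (chr10:69352863-69353162, minus strand) held TTTGAA 71 and 15 bases before the start, and that of Mki67 (chr7:135716330-135716629, minus strand) 116 and 98 bases before it. That of Ccnb2 (chr9:70421505-70421804, minus strand) held 1 copy 167 bases before the start and another just after it, with CCAAT boxes 87, 54 and 21 bases before it. Ccnb2, a mitotic cyclin, was at 2.23, 2.26 and 4.45 CPM in mdx myotubes and 56.6, 56.0 and 70.5 CPM in mdx myoblasts (log2 fold change -4.34, edgeR adjusted p = 0.000152). The promoters shown were picked for their matches. That of Top2a, not shown, also held TTTGAA 179 and 23 bases before the start, whereas that of Ccnb1 held CCAAT boxes and no TTTGAA.

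Genes of the G1 phase moved in both directions. The cyclin-dependent kinase inhibitor Cdkn1a (p21, chr17:29090976-29100727), which holds differentiating myoblasts out of the cycle, was at 2847, 3289 and 3047 CPM in mdx myotubes and 354, 372 and 376 CPM in mdx myoblasts (log2 fold change 3.06 ± 0.113 (SE), edgeR adjusted p = 4.08e-05). Its relative Cdkn1c (p57) rose by 4.25 and the retinoblastoma gene Rb1 by 2.45. Ccnd1 (cyclin D1) was at 16.0, 41.7 and 61.9 CPM in mdx myotubes and 1129, 998 and 889.7 CPM in mdx myoblasts (log2 fold change -4.65, edgeR adjusted p = 0.000641), whereas Ccnd3 (cyclin D3) was at 653, 932 and 944 CPM in mdx myotubes and 235, 338 and 371 CPM in mdx myoblasts (log2 fold change 1.42, edgeR adjusted p = 0.0022). The retinoblastoma relative Rbl1 and the activator E2f1 had log2 fold changes of -2.39 and -1.85. Over the list of 36, 12 were higher and 16 lower.

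Signalling genes were mixed. In the Notch list 4 of 26 tested were higher (15.4%) and 8 lower (30.8%), against 25.8% and 26.5% of all genes tested. The Notch target Hes1 was at 18.7, 20.1 and 20.0 CPM in mdx myotubes and 54.5, 80.1 and 63.8 CPM in mdx myoblasts (log2 fold change -1.75), whereas Notch1 (log2 fold change -0.26, edgeR adjusted p = 0.536) and Notch3 (-1.05, 0.0672, and 0.0212 without mdx myoblast replicate 1) were not called. The target gene Heyl was at 22.4, 39.2 and 42.5 CPM in mdx myotubes and 1.07, 65.7 and 2.78 CPM in mdx myoblasts. Its log2 fold change was 0.58 with all 6 libraries (edgeR adjusted p = 0.751) and 4.19 without mdx myoblast replicate 2 (0.00219). For the IGF axis 9 of 25 were higher (36.0%) and 5 lower (20.0%), not far from the shares over all genes. Igf2, the fetal growth factor that myoblasts secrete as they differentiate, was at 4304, 4442 and 2547 CPM in mdx myotubes and 33.8, 161 and 174 CPM in mdx myoblasts (log2 fold change 4.94, edgeR adjusted p = 0.00161). H19, the imprinted noncoding RNA beside it, was at 20799, 27316 and 17588 CPM in mdx myotubes and 458, 1561 and 2540 CPM in mdx myoblasts (log2 fold change 3.85, edgeR adjusted p = 0.00321). Igfbp2, a binding protein of the IGFs, had a log2 fold change of -3.33.

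In the list of TGF-beta, BMP and activin signalling 9 of 42 were higher (21.4%) and 15 lower (35.7%). The shares over all genes tested were 25.8% and 26.5%. The activin antagonist follistatin (Fst) was at 402, 101 and 272 CPM in mdx myotubes and 23.1, 16.6 and 19.2 CPM in mdx myoblasts (log2 fold change 3.72), and the ligand Tgfb3 rose by 3.97. Tgfb2 was at 15.0, 20.7 and 27.2 CPM in mdx myotubes and 1.9, 11.2 and 6.16 CPM in mdx myoblasts (log2 fold change 1.71, edgeR adjusted p = 0.0574, and 2.38 with 0.0176 without mdx myoblast replicate 2). In the list of FGF, HGF and EGF signalling 8 of 34 were higher and 17 lower. The HGF receptor Met was at 37.3, 38.3 and 40.2 CPM in mdx myotubes and 235, 193 and 156 CPM in mdx myoblasts (log2 fold change -2.34). Of the feedback inhibitors of ERK signalling, Dusp4, Dusp6 and Spry4 fell, with log2 fold changes of -4.0, -2.09 and -2.19. Spry1, of the same family, was at 58.4, 78.4 and 69.4 CPM in mdx myotubes and 30.8, 82.4 and 7.21 CPM in mdx myoblasts, and the ranges overlapped (log2 fold change 0.77, edgeR adjusted p = 0.433, and 1.84 with 0.049 without mdx myoblast replicate 2). The FGF receptors did not move alike, since Fgfr3 rose by 4.11 and Fgfr4 had a log2 fold change of -1.26. In the immediate early and AP-1 list 1 of 24 was higher and 9 were lower, and 4 were higher and 9 lower without mdx myoblast replicate 2. Fos was at 29.4, 10.5 and 30 CPM in mdx myotubes and 8.25, 564 and 36.2 CPM in mdx myoblasts, so that a single library held its high level (edgeR adjusted p = 0.126, 0.954 without that library and 0.0433 without mdx myoblast replicate 1). Nr4a2 and Fosl1 fell by 6.08 and 4.35 on the log2 scale.

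Among surface and matrix genes, more were lower than higher. Of 35 tested genes of quiescence and the MuSC surface, 6 were higher and 13 lower (median log2 fold change -1.26), and 8 were higher and 12 lower without mdx myoblast replicate 2 (median -0.58). Sdc3 and Sdc4, the syndecans of MuSCs, had log2 fold changes of -2.91 and -1.80. The summed level of 12 genes known from freshly sorted MuSCs was 224, 182 and 204 CPM in mdx myotubes and 485, 977 and 708 CPM in mdx myoblasts. That sum does not stand for every member, since of 10 tested 0 were higher, 4 lower and 6 not called. Their log2 fold changes ran between -6.40 and -0.23, with a median of -2.63 (-0.47 without mdx myoblast replicate 2). Of 57 tested extracellular matrix genes 9 were higher and 26 lower (median log2 fold change -1.30), and 17 were higher and 26 lower without mdx myoblast replicate 2 (median -0.29). Of 12 tested markers of fibro-adipogenic progenitors, matrix-producing cells of muscle whose list shares genes with the matrix list, 0 were higher and 5 lower (1 and 4 without mdx myoblast replicate 2), with summed levels of 443, 570.1 and 566 CPM in mdx myotubes and 733, 1356 and 948 CPM in mdx myoblasts. Their part in the matrix values was not tested. Fibronectin (Fn1) was at 423, 508 and 361 CPM in mdx myotubes and 2446, 1476 and 1655 CPM in mdx myoblasts (log2 fold change -2.11, edgeR adjusted p = 0.000523). The laminin chains moved in opposite directions, with Lamb2, a chain found at the synapse, at 261, 281 and 315 CPM in mdx myotubes and 65.5, 77.2 and 64.9 CPM in mdx myoblasts, and Lamb1 at 50.5, 55.1 and 58.8 CPM in mdx myotubes and 704, 578 and 595 CPM in mdx myoblasts (log2 fold changes 2.04 and -3.51, edgeR adjusted p = 7e-05 and 4.08e-05). Col1a1 and Postn, genes of fibroblasts, were highest among mdx myoblasts in replicate 2, at 37.6 and 26.2 CPM. Postn was called higher in mdx myotubes only after that library was left out (log2 fold change 1.22 and edgeR adjusted p = 0.528 with it, 5.43 and 0.000992 without it).

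The nonmuscle cytoskeleton receded. Of 46 tested genes of the actin cytoskeleton and adhesion 6 were higher and 29 lower (median log2 fold change -1.07). β-actin (Actb) was at 356, 321 and 367 CPM in mdx myotubes and 3035, 2362 and 2484 CPM in mdx myoblasts (log2 fold change -2.92, edgeR adjusted p = 5.01e-05), and γ-actin (Actg1) had a log2 fold change of -3.04. The cofilins diverged, as Cfl2, the muscle gene, rose by 2.87 and Cfl1, the nonmuscle gene, fell by 2.23. The hyaluronan receptor Cd44 was at 69.2, 91.8 and 99.9 CPM in mdx myotubes and 871, 813 and 920.3 CPM in mdx myoblasts (log2 fold change -3.32).

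Genes of protein synthesis and turnover moved by smaller amounts. Of 50 ribosome biogenesis genes 3 were higher and 30 lower (median log2 fold change -0.51), among them the nucleolar proteins Ncl and Npm1 with log2 fold changes of -1.25 and -1.62. Of 60 cytosolic ribosomal protein genes 2 were higher (2 without mdx myotube replicate 1, and 0 or 1 without any other library) and 26 lower (median -0.31). That count of lower genes was 17 without mdx myoblast replicate 3 and 17 without mdx myotube replicate 3. Rpl3 was at 81.6, 303 and 263 CPM in mdx myotubes and 144, 537 and 554 CPM in mdx myoblasts, lowest in replicate 1 of both groups (edgeR adjusted p = 0.277). In the list of the proteasome and muscle ubiquitin ligases 23 of 36 were higher and 1 lower (median 0.44). The muscle ubiquitin ligases did not move alike. Trim63 (MuRF1) was at 121, 79.8 and 86.8 CPM in mdx myotubes and 0.603, 1.99 and 0.873 CPM in mdx myoblasts (log2 fold change 6.36, edgeR adjusted p = 0.000214), and Fbxo32 (atrogin-1) was at 69.1, 55.7 and 60.9 CPM in mdx myotubes and 161, 98.8 and 122 CPM in mdx myoblasts (log2 fold change -1.04, edgeR adjusted p = 0.00419). For autophagy and lysosome genes 21 of 41 were higher and 4 lower, a count of lower genes that became 2 without mdx myotube replicate 2. The autophagosome gene Map1lc3a rose by 2.28. Within the family of lysosomal regulators Tfeb rose by 3.83 and Tfe3 had a log2 fold change of -1.21.

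Chromatin, p53 and interferon genes moved in both directions. Of 43 genes of polycomb, DNA methylation and chromatin 10 were higher and 23 lower. The polycomb methyltransferase Ezh2 was at 21.1, 15.9 and 21.9 CPM in mdx myotubes and 158, 123 and 123 CPM in mdx myoblasts (log2 fold change -2.78, edgeR adjusted p = 9e-05), and Hmga2, a chromatin protein of fetal and proliferating cells, fell by 4.28. Of 28 p53 target and apoptosis genes 7 were higher (25.0%) and 11 lower (39.3%). Over all genes tested 25.8% were higher and 26.5% lower, so the count of higher genes is not read as a result about this list. Trp53, which encodes p53, had a log2 fold change of -1.96, and of its targets Cdkn1a rose while Bax had a log2 fold change of -0.95. Of 32 interferon response genes 3 were higher and 14 lower, a count of lower genes that was 9 without mdx myoblast replicate 2, 7 without mdx myotube replicate 2 and 9 without mdx myotube replicate 3. Tap1, the peptide transporter of antigen presentation, was at 1.32, 1.74 and 1.76 CPM in mdx myotubes and 16.4, 15.3 and 18.2 CPM in mdx myoblasts (log2 fold change -3.37, edgeR adjusted p = 7.48e-05).

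**Figure D3:**
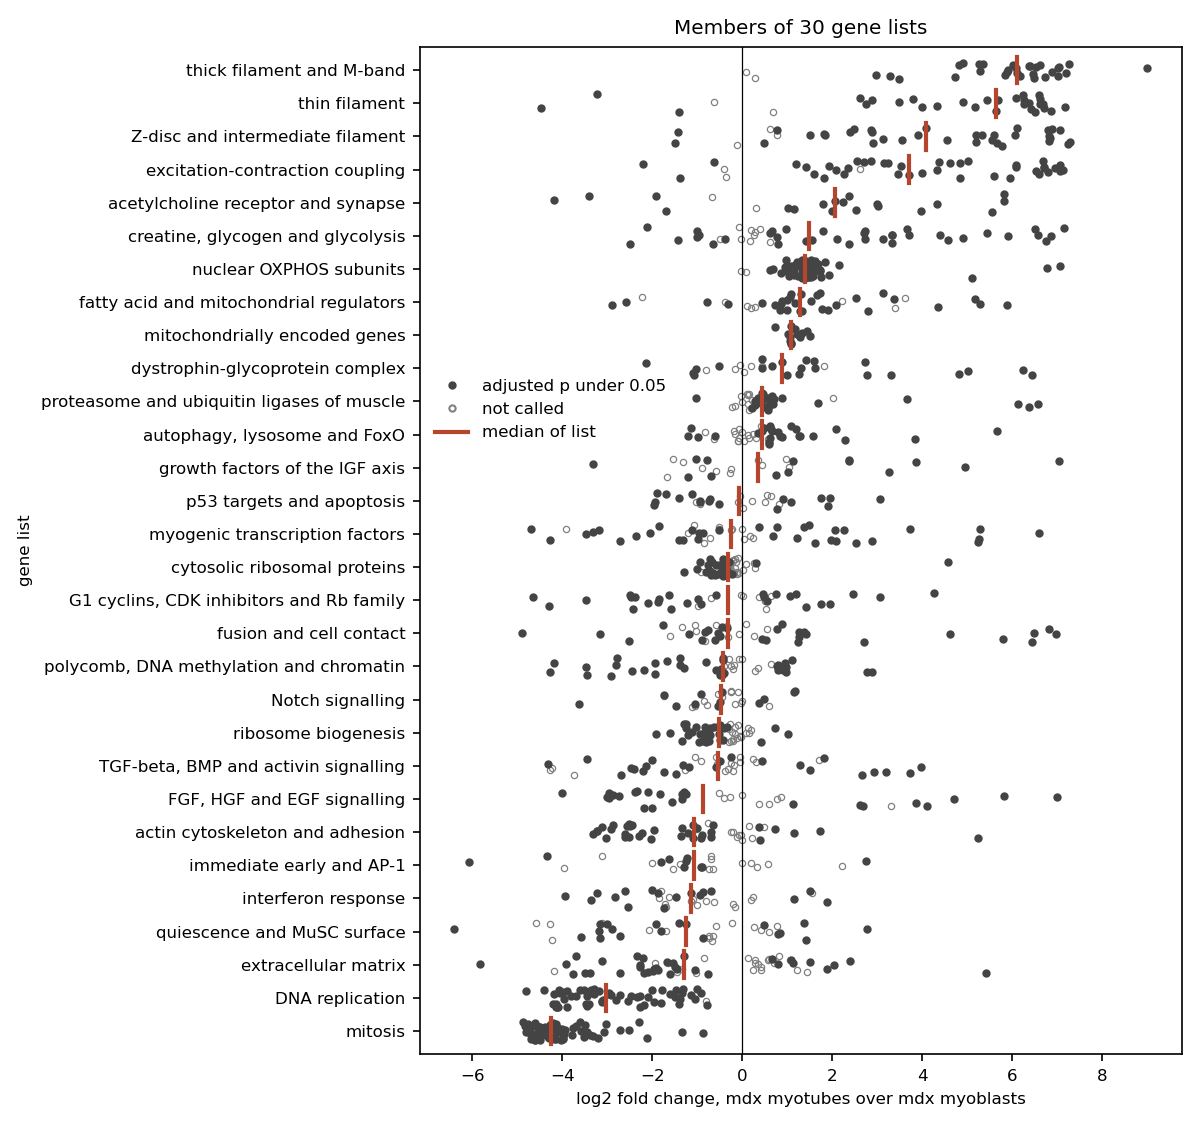
Log2 fold change (mdx myotubes over mdx myoblasts) of each tested member of 30 gene lists, ordered by the list's median (bar), with filled points for members at edgeR adjusted p under 0.05 and open points for the others. Medians ran between -4.26 for mitosis and 6.10 for the thick filament and M-band.

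The individual genes with the largest changes were not all muscle genes. After Myh2, the largest increases were in Folr1, a folate receptor, at 36.0, 12.3 and 8.05 CPM in mdx myotubes and 0.108, 0.0642 and 0 CPM in mdx myoblasts (log2 fold change 8.18, edgeR adjusted p = 0.000948), in Sohlh2, a transcription factor known in germ cells, with 8.10, and in Adamtsl2, a matrix protein that binds fibrillin, with 8.04. Sohlh2 was at 6.13, 10.3 and 53.5 CPM in mdx myotubes, so mdx myotube replicate 3 held most of it (log2 fold change 6.57 without that library). The others were Asb15 (7.99), a muscle ubiquitin ligase adaptor, Cd300c (7.99), an immunoglobulin-family receptor, Ctxn3 (7.96), Adprhl1 (7.82), a protein of heart and muscle, the connexin Gja5 (7.81) and the ferroxidase Hephl1 (7.79). Gja5 was at 215, 30.7 and 44.5 CPM in mdx myotubes, highest in replicate 1 (log2 fold change 6.47 without it). The fitted changes of genes with a library at 0 depend on the prior count of the fit.

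The largest decreases were in Gzmd (-7.75) and in Serpinb2 (-7.49), a plasminogen activator inhibitor, followed by Gzme. Gzmd and Gzme are granzymes, best known from cytotoxic lymphocytes. Gzme was at 0.55, 1.54 and 3.49 CPM in mdx myotubes and 235, 259 and 318 CPM in mdx myoblasts (log2 fold change -7.14, edgeR adjusted p = 0.000349), and Gzmd was at 0.0275, 0.323 and 1.79 CPM in mdx myotubes and 143, 157 and 201 CPM in mdx myoblasts (log2 fold change -7.75, edgeR adjusted p = 0.00107). These granzymes are near copies of each other, so reads could be shared between them. The summed level of the neutrophil and lymphocyte markers was 2.12, 1.51 and 2.03 CPM in mdx myotubes and 2.2, 12.8 and 1.72 CPM in mdx myoblasts, and only 3 of these 15 markers passed the filter on low counts. Their part in the granzyme levels was not tested. Tnfsf11, the RANK ligand of bone resorption, was at 0.192, 0.918 and 1.62 CPM in mdx myotubes and 118, 154 and 126 CPM in mdx myoblasts (log2 fold change -7.12, edgeR adjusted p = 0.000301). The adhesion receptor P-selectin Selp (-7.07), the hedgehog antagonist Hhip (-6.84), Cd300ld3 (-6.57), the G-protein regulator Rgs5 (-6.40), the imprinted gene Nnat (-6.34) and the sodium channel gene Scn9a (-6.33) made up the rest. All 20 genes were called again in each of the 6 fits that left out a library. They had been chosen by a call without mdx myoblast replicate 2 and by no overlap between the groups, so this is no independent check.

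Transcript use within single genes was also compared. Among 2587 genes above 20 TPM in every mdx library, 11 of 19545 transcripts in 8 genes had shares separated by more than 40 percentage points between the groups. They were chosen for that gap and are given as a description without a test. Atp2a2-202, a transcript of the calcium pump gene Atp2a2, made up 81.4, 83.9 and 84.0% of the gene's TPM in mdx myotubes and 7.97, 17.7 and 12.7% in mdx myoblasts, and Atp2a2-201 made up 12 ± 0.769% in mdx myotubes and 71.6 ± 3.58% in mdx myoblasts (SD, n = 3 each). In Tpm1, whose total was not called (log2 fold change 0.68, edgeR adjusted p = 0.0839), Tpm1-205 made up 56.9, 58.7 and 57.8% in mdx myotubes and 8.98, 14.8 and 14.8% in mdx myoblasts. The mitochondrial phosphate carrier gene Slc25a3 had Slc25a3-206 at 62.7, 65.5 and 62.2% in mdx myotubes and 7.83, 13.7 and 7.21% in mdx myoblasts.

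The ribosomal protein gene Rps24 exchanged 2 transcripts, with Rps24-205 at 63.3, 66.3 and 66.9% in mdx myotubes and 7.38, 9.26 and 7.81% in mdx myoblasts and Rps24-202 taking most of the rest. Hacd1-203 of a fatty acid elongation gene was at 76.1, 82.4 and 73.0% in mdx myotubes and 19.2, 22.1 and 0% in mdx myoblasts, with Hacd1-202 at 15.0, 13.2 and 15.1% in mdx myotubes and 79.4, 76.3 and 82.1% in mdx myoblasts. Smtn-201 of smoothelin was at 65.2, 75.3 and 72.7% in mdx myotubes and 3.55, 10.6 and 6.54% in mdx myoblasts. In the opposite direction, Pdlim7-201 made up 1.79, 0.756 and 2.55% in mdx myotubes and 52.4, 44.0 and 47.8% in mdx myoblasts, and Sept11-201 made up 16.1, 13.1 and 15.4% in mdx myotubes and 67.2, 62.4 and 62.9% in mdx myoblasts. The WT cultures held like shares of Atp2a2-202, at 82.7 ± 1.14% in WT myotubes and 21 ± 6.68% in WT myoblasts (SD, n = 3 each). A pair of genes with smaller gaps is added. In the pyruvate kinase gene Pkm, Pkm-202 made up 46.4, 53.4 and 52.0% in mdx myotubes and 14.6, 16.6 and 15.8% in mdx myoblasts, and Fxr1-201 of the RNA-binding protein gene Fxr1 made up 42.5, 46.8 and 46.7% in mdx myotubes and 2.09, 4.9 and 2.97% in mdx myoblasts.

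**Figure D4:**
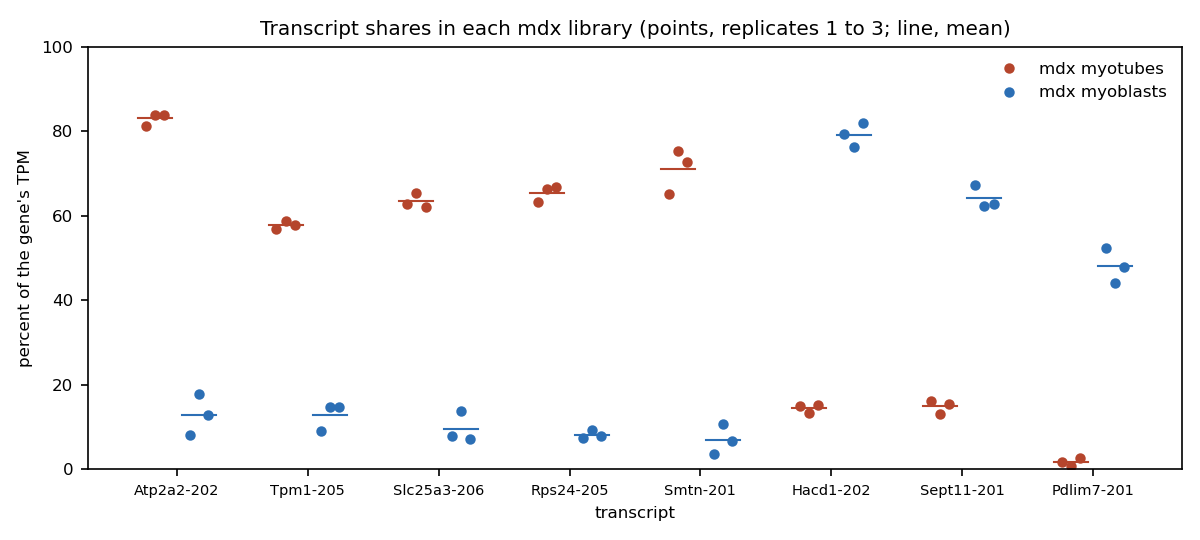
Share of the gene's TPM (percent) held by 8 transcripts in each mdx library, with mdx myotubes left of mdx myoblasts, points for replicates 1 to 3 and a line at the mean. The 8 transcripts, chosen for a gap of more than 40 percentage points, did not overlap between the groups, with Atp2a2-202 between 81.4 and 84.0% in mdx myotubes and between 7.97 and 17.7% in mdx myoblasts.

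The same differentiation was then set against that of WT cells by testing the difference of both changes over 12 libraries. In that fit 10692 genes were called between mdx myotubes and mdx myoblasts and 11166 between WT myotubes and WT myoblasts. The difference itself passed in 11 of 18585 genes, 0.0592% of those tested, and 2281 genes (12.3%) had an unadjusted p under 0.05. The log2 change of mdx minus that of WT was positive for 5 of the 11 and negative for 6. These signs compare changes and not levels. The count depended on single libraries and on the tool. It was 0 without mdx myoblast replicate 2, without mdx myotube replicate 3, without WT myotube replicate 1 or 2, or without WT myoblast replicate 3. It was 1 without WT myoblast replicate 1, 2 without mdx myoblast replicate 3, 3 without mdx myotube replicate 1, and 4 without WT myotube replicate 3 or WT myoblast replicate 2. DESeq2 called 288, and a fit with the replicate number as a block called 0.

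Pttg1 (securin, chr11:43420250-43426251), which guards sister chromatid separation, had the widest difference among the 8 named genes at a mean log2 CPM of at least 2. It was at 0.426, 1.85 and 2.41 CPM in mdx myotubes and 25.7, 29.1 and 37.5 CPM in mdx myoblasts, against 15.6, 15.8 and 14.1 CPM in WT myotubes and 11.6, 11.7 and 13.3 CPM in WT myoblasts. The change was -4.27 in mdx and 0.31 in WT, a difference of -4.58 (95% interval -5.93 to -3.24, edgeR adjusted p = 0.0355, and 0.056 without mdx myoblast replicate 2). Lgals3 (galectin-3) did not change in the same way, as its log2 fold change was 0.14 in mdx and 2.08 in WT. It was at 172, 198 and 145 CPM in mdx myotubes, 143, 157 and 167 CPM in mdx myoblasts, 581, 493 and 398 CPM in WT myotubes and 109.9, 141 and 97.9 CPM in WT myoblasts (difference -1.94, edgeR adjusted p = 0.035). Fbn1 (fibrillin) fell less in mdx, with a log2 fold change of -1.06 in mdx and -2.35 in WT, a difference of 1.29 (edgeR adjusted p = 0.0445).

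Cell cycle genes were examined for the same difference. The median log2 fold change of the mitosis list was -4.26 in mdx and -5.29 in WT. For the difference, 41 of 69 members had an unadjusted p under 0.05, against 12.3% of all genes tested. Mitosis was not the only list above that share. The count was 23 of 50 for ribosome biogenesis, 17 of 58 for DNA replication and 13 of 43 for chromatin, among others. The median of ribosome biogenesis was -0.51 in mdx and -0.77 in WT. Of the mitosis members, 1 (Pttg1) passed the adjusted threshold by edgeR and 8 by DESeq2. Among mdx myotubes the summed mitosis level was highest in replicate 3, at 652 CPM against 370.1 and 369.8 CPM on the scale of the 6 mdx libraries. Without that library 0 genes in all passed the adjusted threshold by edgeR. The same was so without any of several other libraries, as given above. That count therefore does not single out mdx myotube replicate 3, and its part in the difference of the mitosis list was not tested. The difference of Pttg1 (-4.58) ran opposite to that of the list's medians. Mki67 was at 6.84, 6.85 and 22.5 CPM in mdx myotubes, 285, 191 and 226 CPM in mdx myoblasts, 3.25, 6.09 and 2.5 CPM in WT myotubes and 268, 292 and 287 CPM in WT myoblasts. The difference was 1.90 (95% interval 0.4 to 3.4, edgeR adjusted p = 0.31). Myog was at 2120, 1290 and 1060 CPM in mdx myotubes, 27.7, 54.8 and 35.8 CPM in mdx myoblasts, 1280, 1160 and 1260 CPM in WT myotubes and 40.3, 231 and 49.9 CPM in WT myoblasts, so that WT myoblast replicate 2 stood above the other myoblasts. Its change was 5.24 in mdx and 3.53 in WT, a difference of 1.72 (95% interval -0.21 to 3.64, edgeR adjusted p = 0.442). The sarcomere lists had medians of 6.10 in mdx and 5.36 in WT for the thick filament and M-band, 5.63 and 4.89 for the thin filament, and 4.09 and 3.93 for the Z-disc, with 0 members called for a difference by edgeR and 1 in each list by DESeq2. Before adjustment, p was under 0.05 for 5, 5 and 3 members of the lists in that order, which held 35, 31 and 37 genes of the data. Over all genes tested that share was 12.3%, so these counts are not read as a result about the lists.

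**Figure D5:**
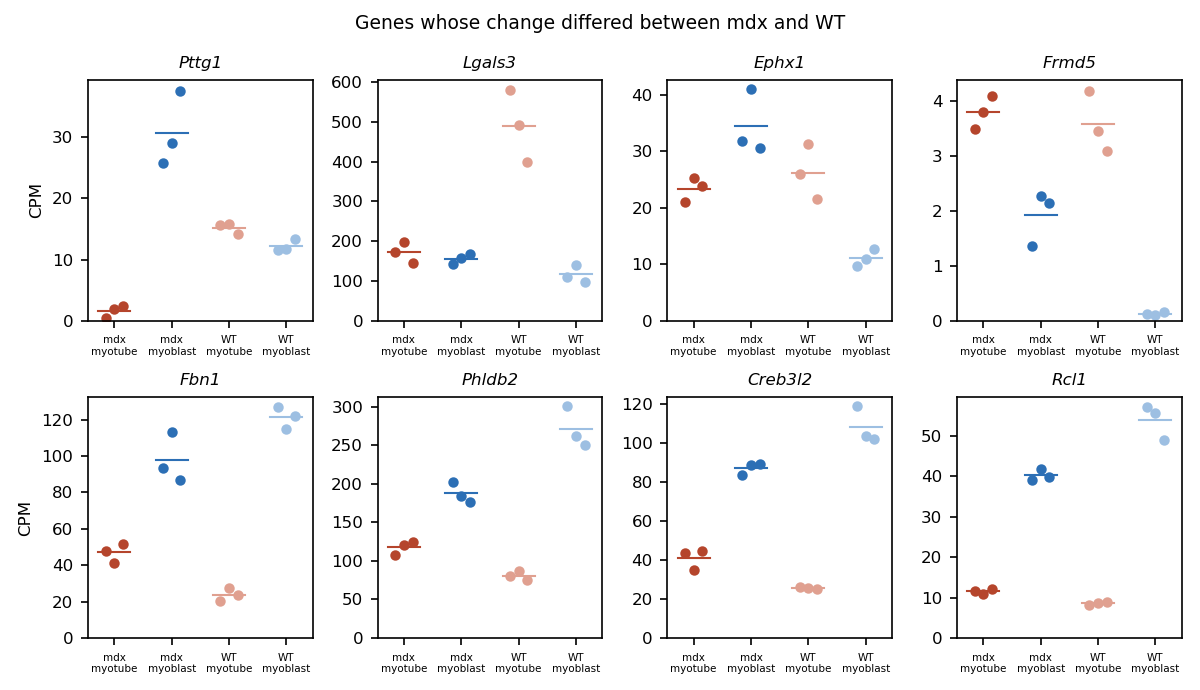
CPM (linear axes that start at 0) of 8 genes whose change differed between mdx and WT, in mdx myotubes, mdx myoblasts, WT myotubes and WT myoblasts, with points for replicates 1 to 3 and a line at the mean. Pttg1 was between 0.426 and 2.41 CPM in mdx myotubes and between 14.1 and 15.8 CPM in WT myotubes.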

How the data were processed

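Sorted hindlimb myogenic cells were cultured as myoblasts or differentiated for 2 days, and polyA RNA (20 ng) was sequenced as strand-specific libraries. The authors quantified transcripts with Salmon 0.13.1 (per the labels, GRCm38) and deposited, per library, estimated counts, TPM and transcript lengths. Here the deposited estimated counts of 136202 transcripts were summed per gene, rounded and, for 6 libraries, tested with edgeR 4.0.16 (quasi-likelihood, robust, TMM scaling, filterByExpr, two-sided, Benjamini-Hochberg adjusted p under 0.05) in R 4.3.3. Deposited TPM values gave the transcript shares. The genotype difference was an interaction contrast over 12 libraries. CPM values use TMM scaling.

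The members and the 40 gene lists were chosen with earlier results of these data known. The 1275 list genes included 5 names that matched no gene. Named genes were the 10 largest increases and decreases (called with and without mdx myoblast replicate 2, no overlap, mean log2 CPM of at least 2), anchor genes of each list with up to 4 further members of smallest p, and the largest genotype differences. Klhl41, Capn3, Ccnb2, Asph, Itpr1, Itpr3, Rrm1, Mylk2, Smyd2, Lyz2, Sdc3, Tfe3 and the transcripts were named outside these or after their values were seen. Alternatives were DESeq2 1.42.0, RLE scaling, no filter, a transcript length offset, a test against a fold of 2, a replicate block and leaving out each library. Tests were tried on simulated counts first.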

Additional observations from a re-analysis of the deposited data

Results flagged for a closer look

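These 11 results were singled out because the change between myotubes and myoblasts differed between mdx and WT by a test of that difference (edgeR, adjusted p under 0.05). On the log2 scale, mdx minus WT, the difference was -4.58 for Pttg1, -1.94 for Lgals3, -1.8 for Ephx1, 1.29 for Fbn1, 1.07 for Phldb2, 1.04 for Lrrn2, 0.99 for Creb3l2 and 0.86 for Rcl1. It was -3.88 for Frmd5, which was at 3.49, 3.8 and 4.08 CPM in mdx myotubes, 1.36, 2.27 and 2.14 CPM in mdx myoblasts, 4.17, 3.44 and 3.09 CPM in WT myotubes and 0.113, 0.0972 and 0.151 CPM in WT myoblasts. Frmd5 alone of the 11 was called in 6 of the 12 fits that left out a library. The predicted locus Gm47486 had a difference of -1.2. For Gm9726 the fitted difference was -8.35 and depends on the prior count of the fit, since this locus was at 1.09, 2.43 and 1.52 CPM in mdx myotubes, 1.47, 0.638 and 0.446 CPM in mdx myoblasts, 1.83, 1.3 and 1.58 CPM in WT myotubes and 0 CPM in every WT myoblast library. Ephx1, a detoxifying epoxide hydrolase, was at 21, 25.2 and 23.8 CPM in mdx myotubes, 31.7, 41.0 and 30.6 CPM in mdx myoblasts, 25.9, 31.2 and 21.5 CPM in WT myotubes and 9.71, 10.9 and 12.6 CPM in WT myoblasts.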

How the results depend on the processing

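The counts of 4431 genes higher and 4551 lower in mdx myotubes kept within 1.5 times under RLE scaling, no filter, DESeq2, the replicate block, the transcript length offset, the fit of 12 libraries and each library left out (3701 to 4382 higher and 3771 to 4386 lower with 1 library left out). Tested against a fold change of 2, the counts were 1678 and 1781. The replicate block gave 4357 and 4475. Same-numbered mdx libraries shared deviations with r of 0.357 for replicate 1, 0.0577 for replicate 2 and 0.0883 for replicate 3. Libraries of unlike number had r between -0.218 and 0.17, so replicate 1 alone stood above that range. The main fits did not pair the cultures by number, and whether replicate 1 of both groups shared an origin was not tested. The 11 genotype differences became 7 with RLE scaling, 288 with DESeq2, 0 with the replicate block, 1 with the length offset, 0 without mdx myoblast replicate 2 and mdx myotube replicate 3 together, and between 0 and 15 with 1 library left out. The cause was not tested. Of 244 named genes called, 198 were called under every alternative that gave a value, and 0 reversed. RLE scaling shifted the median of all genes by 0.04 on the log2 scale. Depth limits only the lowest genes, since 10 counts are 0.155 to 0.275 CPM.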

Other observations

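A few genes, chosen after their values were seen, set replicate 1 of both mdx cultures apart from the other cultured libraries. Gt(ROSA)26Sor was at 0.426 CPM in mdx myotube replicate 1 and 0.179 CPM in mdx myoblast replicate 1, against 9.61 to 13.0 CPM in the other 10 libraries, WT included. Ifi202b, an interferon-inducible gene, was at 7.29 CPM and 6.67 CPM in the same pair of libraries and at 0.202 CPM or less in the rest. Cpne4 was at 0 CPM in both, against 1.87 and 1.31 CPM in mdx myotube replicates 2 and 3 and 4.71 and 7.4 CPM in mdx myoblast replicates 2 and 3. On the second principal component, which held 8.86% of the variance, these libraries were at 31.5 (myotube) and 26.6 (myoblast), and the other mdx libraries were between -21.8 and -9.08.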
